A study of Mus musculus with 42 samples.

Results

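The sites described here are the strongest genomic binding sites that 2 chimeric transcription factors, HOXC10:C13.1 and HOXC10:C13.2, had in common in mouse embryonic stem cells differentiating in culture. Each chimera joins the N-terminal part of HOXC10 to the DNA-binding homeodomain and C-terminus of HOXC13, and in HOXC10:C13.2 the part taken from HOXC13 begins further upstream and so also holds a conserved stretch before the homeodomain. The events of each chimera on chromosomes 1 to 19 and X were ranked by their ChIP read counts as estimated in the deposited lists, the top 10000 of each list were kept, and a HOXC10:C13.1 event with a HOXC10:C13.2 event within 100 bp was taken as an agreed site. This gave 8252 agreed sites, out of 61413 HOXC10:C13.1 and 86214 HOXC10:C13.2 events in all. Each site was then classed by whether the full list of HOXC13 (115819 events) or of HOXC10 (26859 events) held an event within 100 bp.

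All cells were Ainv15 mouse embryonic stem cells carrying 1 transgene under a doxycycline (Dox) promoter, grown as embryoid bodies with retinoic acid and a smoothened agonist for 3 days, with Dox added on day 2 for 24 h. The groups were the lines iFlag.Hoxc10:c13.1 (2 libraries) and iFlag.Hoxc10:c13.2 (2 libraries), both precipitated with a Flag antibody. HOXC13 had 1 Flag library from iFlag.Hoxc13 and 1 HA library from iHoxc13.HA. HOXC10 had 1 library from iHoxc10.V5 with antibody ab15828 and 2 Flag libraries from iFlag.Hoxc10. The transgene sits as a single copy at 1 locus and every cell is induced from the same promoter, so the lists describe binding of an induced protein, made for HOXC13 from a human cDNA. Depth ran from 26.5 to 32.9 M reads per library for the chimeras and HOXC13 and from 5.04 to 21.8 M for HOXC10. The caller's signal fraction was 0.145 and 0.192 for the chimeras, 0.349 for HOXC13 and 0.097 for HOXC10, whose libraries ranged from 0.017 to 0.161. Every list of these groups pools its libraries, so no value used here has an error between cultures. No test between conditions was made, and the 95% Wilson intervals given with shares cover counting error only. Further day 3 lists served for comparison. HOXC6, HOXC8, HOXC9 and the reciprocal chimeras had 2 libraries each, from Flag lines. HOXA9 and HOXD9 each had 1 library from a Flag line and 1 from an HA line. MEIS had only 1 library in each of iHoxc6.V5, iHoxc9.V5 and iHoxc10.V5.

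Hox proteins are transcription factors that give cells their position along the body axis. They bind short AT-rich words through the homeodomain, and their choice of sites also depends on partners of the PBX and MEIS families and on how far they can reach closed chromatin. HOXC10 is a lumbar-level factor, while HOXC13, known for its role in hair and nail formation, belongs to the most posterior group and prefers a word ending in C where other posterior factors prefer one ending in T. In the chimeras the homeodomain and C-terminus come from HOXC13 and the N-terminal part from HOXC10. The comparison asks which parent's sites such a protein occupies.

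As examples of what was bound, 2 or 3 of the 5 sites with most HOXC10:C13.1 reads in each class are given with 50 bp to each side of the event, plus strand of GRCm38 (mm10), 5′ to 3′. Capitals mark the posterior HOX word TTTAT and the HOXC13 word TTTAC, or ATAAA and GTAAA where the word lies on the other strand. The windows shown for sites with a HOXC13 event but no HOXC10 event carried up to 6 copies of TTTAT. Over all 6487 sites of that class the mean was 2.95.
Tnfsf18 site, chr1:161525167-161525267: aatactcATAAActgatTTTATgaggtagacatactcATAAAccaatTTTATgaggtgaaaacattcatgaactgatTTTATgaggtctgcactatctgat
Slco6d1 site, chr1:98515015-98515115: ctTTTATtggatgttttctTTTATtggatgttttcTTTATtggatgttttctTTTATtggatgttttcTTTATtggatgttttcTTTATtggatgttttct
Hoxa7 site, chr6:52216774-52216874: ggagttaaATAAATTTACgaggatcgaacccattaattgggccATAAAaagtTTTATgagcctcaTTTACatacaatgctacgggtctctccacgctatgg
The Slco6d1 window is a tandem repeat holding TTTAT 6 times, and all of it is marked as repeat in the assembly.

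Sites with an event of both parents held both TTTAC and TTTAT in all 3 windows, the Hoxc5 site lying in an intron within the Hoxc cluster.
Auts2 site, chr5:132068031-132068131: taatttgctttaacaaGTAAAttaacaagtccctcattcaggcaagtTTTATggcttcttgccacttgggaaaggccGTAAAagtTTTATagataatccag
Hoxc5 site, chr15:103014583-103014683: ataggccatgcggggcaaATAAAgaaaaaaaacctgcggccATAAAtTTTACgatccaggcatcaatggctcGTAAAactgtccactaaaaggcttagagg
Cd200 site, chr16:45378564-45378664: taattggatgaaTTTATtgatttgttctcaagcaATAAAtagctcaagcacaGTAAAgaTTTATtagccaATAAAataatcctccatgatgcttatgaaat

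The windows shown for HOXC10 alone held 1 or 2 copies of TTTAT and none of TTTAC, while over all 21 sites TTTAT was at 15 (71.4%) and TTTAC at 7 (33.3%).
Klhl1 site, chr14:97045984-97046084: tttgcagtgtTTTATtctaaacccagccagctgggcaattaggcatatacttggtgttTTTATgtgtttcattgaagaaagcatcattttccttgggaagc
Jarid2 site, chr13:44815445-44815545: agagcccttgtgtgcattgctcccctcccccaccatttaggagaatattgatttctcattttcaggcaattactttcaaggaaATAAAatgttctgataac

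The windows shown for neither parent lie partly or wholly in sequence marked as repeat, and the share of repeat over the whole class is given with the base composition.
Fam135b site, chr15:70329492-70329592: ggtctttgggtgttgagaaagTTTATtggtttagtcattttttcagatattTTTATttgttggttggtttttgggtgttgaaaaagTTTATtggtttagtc
Vwa3b site, chr1:37107085-37107185: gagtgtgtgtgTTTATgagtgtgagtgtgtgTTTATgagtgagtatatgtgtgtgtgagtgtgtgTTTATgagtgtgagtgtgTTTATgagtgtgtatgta
The Vwa3b window is a TG-rich repeat holding TTTAT 4 times.

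The chimeras shared most of their strongest sites. Of the top 10000 HOXC10:C13.1 events, 8252 (82.5%, 95% interval 81.8 to 83.3) had a HOXC10:C13.2 event among its top 10000, and 8298 (82.98%) did in the other direction. At any rank the shares were 99.6% and 99.0%. The 8252 sites matched 8245 distinct HOXC10:C13.2 events, and 97.6% of the pairs had the very same position, so the placing of events in the chimera lists was not independent. Only 83 of the 7064 HOXC13 matches described below were at the same base, and the median distance there was 14 bp. The last event kept had 144.9 reads in HOXC10:C13.1 and 181.4 reads in HOXC10:C13.2, and the event next in rank had the same count in both lists.

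Read counts of the chimeras went together across the agreed sites. A site had a median of 226 reads in HOXC10:C13.1 (quartiles 182 and 309) and 272 in HOXC10:C13.2 (quartiles 221 and 364), beside a median of 2.9 control reads. The log2 ratio of HOXC10:C13.2 to HOXC10:C13.1 reads had a median of 0.24, with quartiles of 0.10 and 0.39. Pearson's r of the log2 reads over the 8252 sites was 0.91, as a description across sites that share their libraries. With HOXC13 reads it was 0.18 over 7064 sites, and with HOXC10 reads it was -0.04 over 598 sites. The chimera reads had chosen the sites and the parents' reads had not, so these values do not compare the likeness of the chimeras with that of chimera and parent.

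Nearly all agreed sites with a parent had HOXC13. Of the 8252, 7064 (85.6%, 84.8 to 86.3) had a HOXC13 event and 598 (7.25%, 6.71 to 7.83) a HOXC10 event. Beside these, 49.507% of all HOXC10:C13.1 events and 47.016% of all HOXC10:C13.2 events had a HOXC13 event, and 10.197% and 7.8804% a HOXC10 event. The agreed sites were thus above the whole lists for HOXC13 and below them for HOXC10. By class, 6487 sites (78.6%) had HOXC13 alone, 577 (6.99%) had both, 21 (0.25%) had HOXC10 alone and 1167 (14.1%, 13.4 to 14.9) had neither. The HOXC13 list is the longer, and reduced by its own reads to the length of the HOXC10 list it reached 24.1% of the agreed sites, against the 7.25% of HOXC10, and the share with neither rose to 73.6%. The share with neither was 6.77% with the top 5000 events of each chimera, 25.0% with the top 20000, and 27.0% when only parental events with a log2 q of -20 or lower counted.

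The class changed with the strength of the site. In the first 1000 HOXC10:C13.1 events 99.1% had a HOXC13 event and 0.9% had neither parent, while in ranks 9001 to 10000 the shares were 66.4% and 31.1%. For HOXC10:C13.2 the first and the last 1000 gave 99.5% and 71.8% with HOXC13, and 0.5% and 27.3% with neither. HOXC10 events were found at 7.8% of the first 1000 HOXC10:C13.1 events, at 4.9% of the next and at 14.0% of ranks 5001 to 6000. No bin of 1000 exceeded that. Median HOXC10:C13.1 reads of the agreed sites were 237.9 with HOXC13 alone, 219.2 with both, 209.3 with HOXC10 alone and 192.5 with neither.

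**Figure D1:**
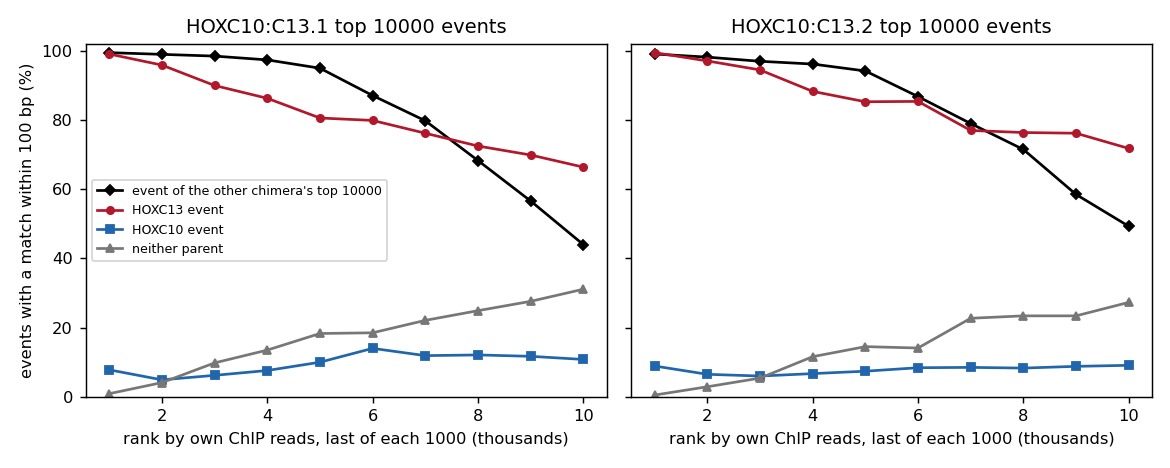
Share of HOXC10:C13.1 (left) and HOXC10:C13.2 (right) events, in bins of 1000 ranks by own ChIP reads, that had an event within 100 bp in the other chimera's top 10000 (black), HOXC13 (red), HOXC10 (blue) or neither parent (grey). HOXC13 falls from 99.1% to 66.4% on the left and from 99.5% to 71.8% on the right, and HOXC10 stays at or below 14.0%.

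The strong sites of the chimeras were mostly not strong sites of HOXC13. The HOXC13 events at the 7064 matched sites had a median rank of 50611.5 of 115819 (quartiles 23254 and 77321), and 916 of them (12.97%, 12.2 to 13.8) lay within the top 10000 of HOXC13. Their median was 90.4 HOXC13 reads, where the whole HOXC13 list has a median of 80.8. HOXC13 events at sites with both parents ranked higher, with a median rank of 13598, 270.9 reads and 241 of 577 (41.8%) in the top 10000, against 53480, 86.3 reads and 675 of 6487 (10.4%) at sites with HOXC13 alone. HOXC10 events at the 598 sites had a median rank of 8278 of 26859, and 331 (55.4%) were in the top 10000, a larger part of that shorter list. From the other side, 1006 (10.06%) of the top 10000 HOXC13 events and 333 (3.33%) of the top 10000 HOXC10 events coincided with an agreed site. At any rank HOXC10:C13.1 had an event at 37.6% and 33.8% of these, and HOXC10:C13.2 at 57.4% and 35.6%. So 4063 of the 10000 top HOXC13 events had no event of either chimera within 100 bp.

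**Figure D2:**
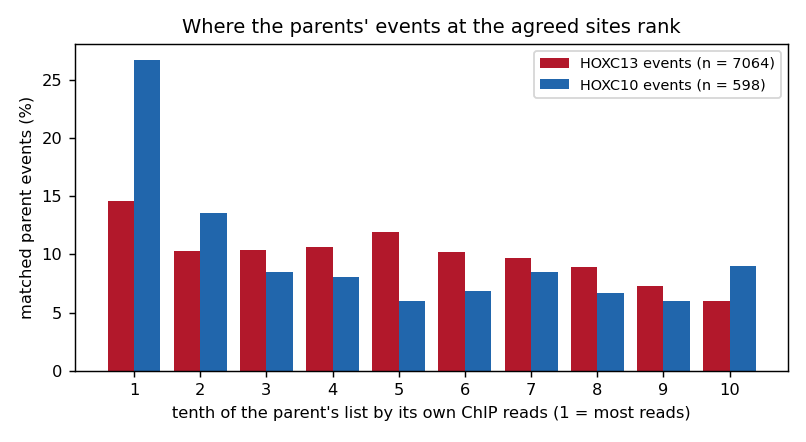
HOXC13 (red, 7064) and HOXC10 (blue, 598) events that match an agreed site, divided by the decile of the parent's own list they fall in, decile 1 having most reads, as a percentage of the matched events. Decile 1 holds 14.6% of the HOXC13 and 26.8% of the HOXC10 matches, and HOXC13 matches are spread over all deciles down to 5.99% in the last.

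Base composition set the agreed sites apart from the top events of both parents. Within 50 bp of the event, GC content was 25.4% ± 6.62 (SD over 8252 sites), compared with 38.1% ± 6.04 for the top 10000 HOXC13 events, 42.6% ± 7.14 for the top 10000 HOXC10 events and 41.8% ± 9.14 over all genome tiles of the same length. It was 25.0% ± 5.91 with HOXC13 alone and 22.1% ± 4.88 with neither, but 35.6% ± 7.16 with both parents and 35.6% ± 7.00 with HOXC10 alone. Over whole lists GC content was 35.7% ± 7.91 for HOXC13, 42.4% ± 7.59 for HOXC10, 28.7% ± 8.54 for HOXC10:C13.1 and 28.6% ± 8.30 for HOXC10:C13.2. The first 3 groups of 1000 HOXC10:C13.1 events had 24.8%, 24.7% and 24.7%, so the low GC content began at the top of the list. It was local: 1 kb to each side of the agreed sites the mean was 38.6%, and 38.6% over 5 kb to each side, against 41.7% there for HOXC13 and 42.7% for HOXC10. Over 250 bp to each side GC content was 31.6% with HOXC13 alone and 31.2% with neither. Sequence marked as repeat made up 30.3% of the window with HOXC13 alone, 40.6% with neither and 10.12% with both, beside 10.08% for top HOXC13 events, 6.98% for top HOXC10 events and 34.3% of the genome. CpG dinucleotides, at 0.83 per 100 bp in the genome, were at 0.36 with HOXC13 alone, 0.22 with neither and 1.04 with both.

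**Figure D3:**
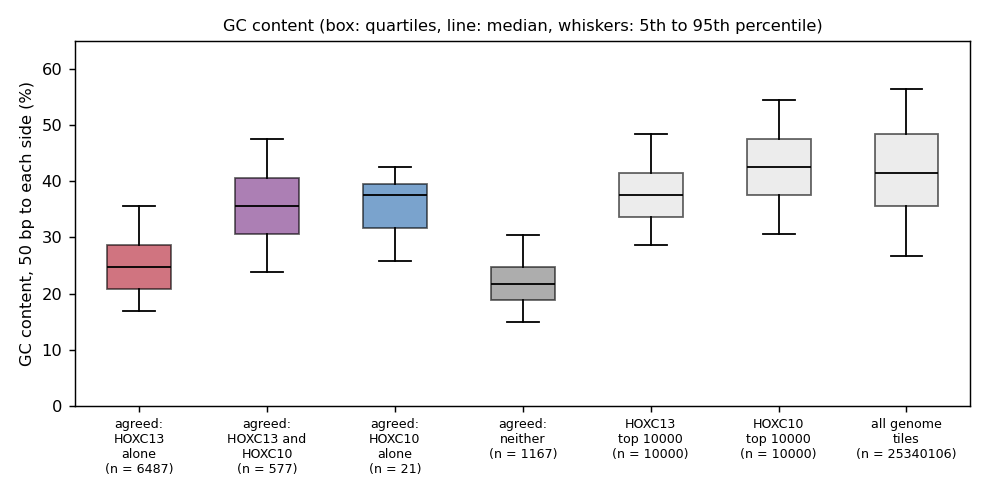
GC content within 50 bp of the event for the 4 classes of agreed sites, the top 10000 HOXC13 and HOXC10 events and all genome tiles of that length, with boxes for the quartiles, lines for the median and whiskers for the 5th and 95th percentiles. Sites with HOXC13 alone (median 24.8%) and with neither (21.8%) lie below HOXC13's own top events (37.6%), and sites with both parents (35.6%) lie near them.

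The class of a site moved with its GC content. Of the 1839 agreed sites under 20% GC, 76.6% had a HOXC13 event, 0.38% a HOXC10 event and 23.4% neither. Of the 247 sites of 40 to 50% GC, 96.4% had HOXC13, 58.3% HOXC10 and 1.62% neither. The median rank of the matched HOXC13 event went from 70292 to 5887.5 over the same range. Median HOXC10:C13.1 reads were 232 and 204, and median control reads 2.2 and 4.6. Seen from HOXC13, 45.0% of its 2549 events under 20% GC coincided with an agreed site and 87.5% with some HOXC10:C13.1 event, whereas of its 29522 events of 40 to 50% GC 0.92% and 12.6% did. Low GC content, repeats and control coverage moved together here, and their part in the read counts was not tested.

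The words TTTAT and TTTAC, which the site rule did not use, were both more common at the agreed sites than beside them, TTTAT by far the more so. TTTAT stood within 50 bp of 7943 sites (96.3%, 95.8 to 96.6), against 40.7% of the windows 1 kb to each side, 33.8% of all genome tiles, 80.9% of top HOXC13 and 55.1% of top HOXC10 events. TTTAC stood at 3271 sites (39.6%, 38.6 to 40.7), against 21.9% beside them and 19.1% of tiles, but 49.7% of top HOXC13 and 25.2% of top HOXC10 events. Both words were counted on either strand, and each match is a description of letters and not of a bound base. Over all GC contents together, the HOXC13 word was thus less frequent at the agreed sites than at the top events of HOXC13 itself, whose homeodomain the chimeras carry. The share with TTTAC was 40.2% (39.0 to 41.4) with HOXC13 alone, 43.5% (39.5 to 47.6) with both and 34.96% (32.3 to 37.7) with neither. Within 25 bp it was 22.1%, 23.2% and 17.1%, and spelled TTTACG within 50 bp it was 5.86%, 9.53% and 3.00%, beside 0.60% of tiles.

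Both shares moved with base composition. Genome tiles of 20 to 25% GC held TTTAC in 36.6% and TTTAT in 80.0% of cases, and the 2745 agreed sites of that GC content held them in 38.7% (36.8 to 40.5) and 97.9% (97.3 to 98.4). In tiles of 35 to 40% GC the shares were 23.4% and 42.3%, and at the 461 agreed sites 45.6% (41.1 to 50.1) and 88.5% (85.3 to 91.1). Sites with neither parent had TTTAC in 35.7% (31.5 to 40.1) at 20 to 25% GC, whose interval holds the 36.6% of tiles. Top HOXC13 events had 57.6% (49.0 to 65.7) at this GC content, over 132 events. The gap to the agreed sites was smaller at higher GC content, with 50.5% of top HOXC13 events against 45.6% at 35 to 40% GC, and 46.4% against 46.96% at 40 to 50%. TTTAT exceeded the tiles in each GC range of the agreed sites, and TTTAC did so in each range over all agreed sites.

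Copies of TTTAT set the chimera sites apart further. An agreed site held 2.91 ± 1.48 copies (SD over 8252 sites) within 50 bp, against 0.60 in the windows beside it, 0.48 in tiles, 1.45 ± 1.08 at top HOXC13 and 0.79 ± 0.88 at top HOXC10 events. At least 3 copies were found at 60.7% of sites with HOXC13 alone, 67.2% with neither, 29.3% with both, 15.4% of top HOXC13 and 4.45% of top HOXC10 events. At 20 to 25% GC the share was 65.7% (63.9 to 67.4) at agreed sites, 57.6% (49.0 to 65.7) at top HOXC13 events and 22.5% in tiles. TTTAC copies averaged 0.51 ± 0.71 at agreed sites, and 1.43% had 3 or more.

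**Figure D4:**
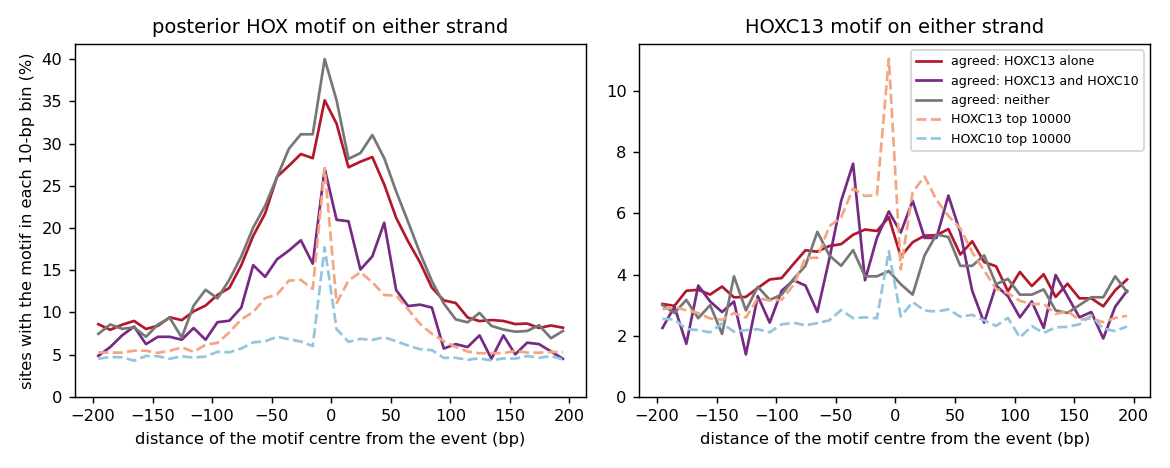
Share of sites with the word TTTAT (left, posterior HOX motif) or TTTAC (right, HOXC13 motif) on either strand, by the distance of its centre from the event in 10-bp bins, for 3 classes of agreed sites (solid) and the parents' top 10000 events (dashed). TTTAT is highest near the event and reaches 35.1% of sites with HOXC13 alone in the bin just before the event, while TTTAC reaches 5.9% there against 11.1% for top HOXC13 events.

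Other short words followed the classes. All hexamers were ordered by how much more often they occurred within 50 bp of the sites than 1 kb to each side, a listing made after the data were seen. With HOXC13 alone and with neither parent the first was TTTTAT, at 85.6% and 86.3% of sites against 18.9% and 19.5% beside them. GC content was 25.0% and 22.1% at these sites and 38.5% and 37.9% beside them, and hexamers were not compared at equal GC content. With both parents it was TTTTAT too, at 56.5% against 17.2%, followed by TTTATG at 45.1% and TTTATT at 53.0%, and ATTGAT was also among the first 8, at 32.6% against 4.85%. At top HOXC10 events ATTGAT was second, and it was not among the first 8 with HOXC13 alone, with neither or at top HOXC13 events. The PBX-HOX word TGATTTAT was found at 50 of 577 sites with both parents (8.67%, 6.63 to 11.2), at 3.21% with HOXC13 alone and at 3.26% with neither. It was at 6.97% of top HOXC10 and 2.38% of top HOXC13 events, and at 0.60% of tiles.

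Other Hox factors and the cofactor MEIS followed the same division. Of the 577 sites with both parents, 570 (98.8%) also had an event of HOXC6, HOXC8, HOXC9, HOXA9 or HOXD9 and 222 (38.5%, 34.6 to 42.5) had an event of the Hox cofactor MEIS, mapped in cells induced for HOXC6, HOXC9 or HOXC10. With HOXC13 alone, 905 of 6487 (14.0%) had another Hox factor and 36 (0.55%) MEIS, and with neither 25 of 1167 (2.14%) and 3 (0.26%). MEIS was not mapped in cells induced for HOXC13 or for a chimera. These shares therefore do not show whether MEIS was at the sites in chimera cells. HOXC9, a thoracic-level factor, had the longest list of the 5 and an event at 96.0% of sites with both, 13.07% with HOXC13 alone and 1.37% with neither. With each list cut to the 17898 events of HOXC6, the shortest Hox list, HOXC9 was at 70.4%, 3.18% and 0.51%. The reciprocal chimeras, which carry the HOXC10 homeodomain on the N-terminal part of HOXC13, were at 98.3% of sites with both parents, 19.3% with HOXC13 alone and 2.74% with neither. None of these 10 lists had an event at 5118 sites with HOXC13 alone (78.9%) and at 1129 with neither (96.7%). Over all 8252 agreed sites the full HOXC9 list had an event at 17.4%. The shares over all events of the chimera and parent lists were not computed. The classes were set by parental events, and whether any event with or without HOXC10 would show the same division was not tested. The 21 sites with HOXC10 alone all had another Hox factor, and 12 had MEIS.

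**Figure D5:**
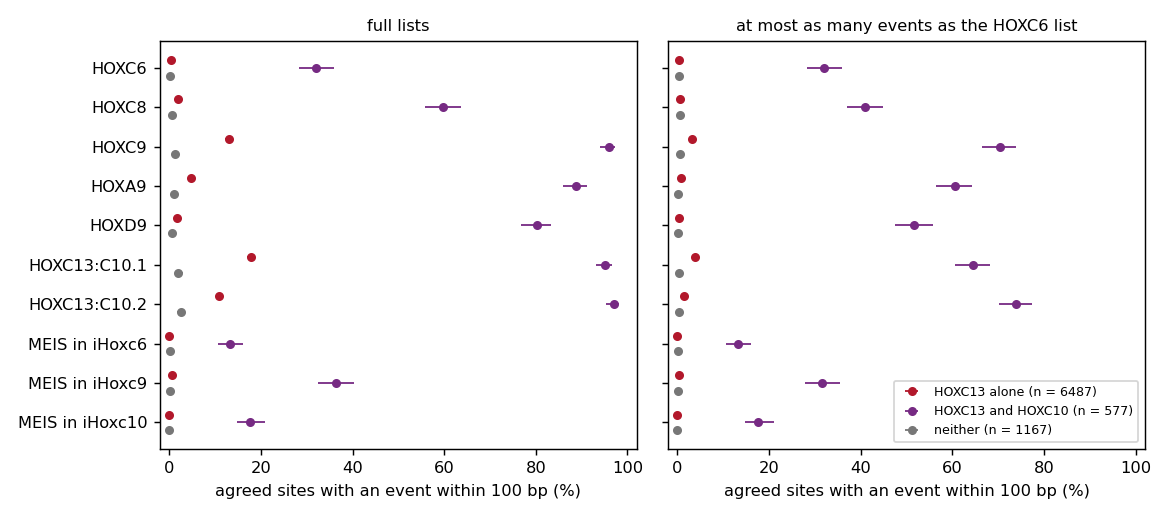
Share of agreed sites with HOXC13 alone (red, 6487), with both parents (purple, 577) and with neither (grey, 1167) that had an event of another day 3 list within 100 bp, with 95% Wilson intervals, for full lists (left) and lists of at most as many events as HOXC6 (right). Sites with both parents lie between 13.17% and 97.1% on the left, while sites with HOXC13 alone do not exceed 17.8%.

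Some sites were among the top 10000 of 1 chimera only. Of 1748 such HOXC10:C13.1 events, 372 (21.3%, 19.4 to 23.3) had a HOXC10 event, and of 1702 HOXC10:C13.2 events 183 (10.8%, 9.37 to 12.3). HOXC10 alone was at 103 (5.89%, 4.88 to 7.10) and at 6 (0.35%, 0.16 to 0.77), and HOXC13 at 63.2% and 82.7%. MEIS was at 10.18% (8.85 to 11.7) and 7.11% (5.98 to 8.43), TTTAC at 33.7% (31.5 to 36.0) and 45.2% (42.8 to 47.5). HOXC10:C13.1, with the smaller part from HOXC13, thus had higher shares of HOXC10 events and lower shares of HOXC13 events and words among these events. Over all events of each list the shares with HOXC10 were 10.197% and 7.8804%, and those with HOXC13 were 49.507% and 47.016%, the latter in the other direction. With 1 pooled list per chimera these differences were not tested. Any of the other 5 Hox factors was at 31.6% (29.5 to 33.9) and 27.8% (25.7 to 30.0), GC content was 27.8% ± 8.59 and 28.4% ± 7.81, and TTTAT copies numbered 2.37 ± 1.60 and 2.46 ± 1.36. Almost all of these events had an event of the other chimera at a lower rank.

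Agreed sites were far from the start sites of genes. The median distance to the nearest transcription start site (TSS) of a protein-coding gene was 116 kb (quartiles 23.6 and 412), against 51.2 kb for top HOXC13 and 56.1 kb for top HOXC10 events. Within 1 kb of a TSS were 183 sites (2.22%, 1.92 to 2.56), beside 3.81% of all genome positions, 3.20% of top HOXC13 and 4.25% of top HOXC10 events. With TSSs of any annotated gene the share was 3.61%. Over 100 kb away were 52.3% of agreed sites, 35.8% of positions, 35.3% of top HOXC13 and 37.5% of top HOXC10 events. By class this was 52.2% (51.0 to 53.5) with HOXC13 alone, 57.8% (54.9 to 60.6) with neither and 42.3% (38.3 to 46.4) with both. Introns of protein-coding genes held 44.4% (40.4 to 48.4) of sites with both, 35.2% with HOXC13 alone and 27.3% (24.9 to 30.0) with neither, beside 36.7% of positions and 45.6% of top HOXC13 events. Over all agreed sites introns held 34.7%, and exons held 2.35% beside 3.74% of positions.

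Chromosome X had few agreed sites, with 142 or 0.87 per Mb against 3.38 per Mb on the autosomes, where single chromosomes ranged from 1.88 (chromosome 7) to 4.79 (chromosome 16). The parents' top events were as sparse there, at 0.82 per Mb for HOXC13 and 0.67 for HOXC10 against 4.12 and 4.13. Sites with neither parent made up 40.8% (33.1 to 49.1) of agreed sites on X and 13.7% (12.9 to 14.4) on the autosomes. Their density was 0.35 and 0.46 per Mb, so the difference in share lay in the HOXC13 sites, at 0.51 and 2.91 per Mb. The full HOXC13 list, which sets the class, was also sparser on X, with 13.9 events per Mb against 47.4 on the autosomes. Its part in the higher share with neither parent was not tested.

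The genes nearest to most agreed sites included several for adhesion molecules, often at long distances. The Pcdh20 sites with HOXC13 alone lay 158 to 2677 kb from its TSS. The Pcdh17 sites with neither lay 515 to 2208 kb away, and the Flrt2 sites with both 203 to 1243 kb. These counts were not set against the length of sequence nearest to each gene. With HOXC13 alone the nearest TSS most often belonged to Cdh9 (38 sites, 44.7 to 1698 kb away) and Pcdh20 (35 sites), a cadherin and a protocadherin of cell adhesion, then Pcdh9 (33), Cadm2 (33), a synaptic adhesion molecule, and Csmd3 (29). With neither parent they were Csmd3 (13), Pcdh17 (13), Grik2 (8), a kainate-type glutamate receptor subunit, Cntn5 (7), a contactin, and Lrfn5 (7). With both parents they were Chl1 (6), an adhesion molecule of the L1 family, Robo2 (6), a receptor for the guidance cue Slit, Auts2 (5), Flrt2 (5) and Meis1 (4), the HOX cofactor. The 21 sites with HOXC10 alone had 21 different nearest genes, among them Klhl1, Jarid2, Pcdh9 and Cacna2d1.

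The strongest single sites differed in how they ranked in HOXC13. The first, 30.6 kb from the TSS of Tnfsf18, a cytokine of the TNF family, had 3962 reads in HOXC10:C13.1 and 3426 in HOXC10:C13.2, rank 1 in both, and 1463.5 reads at rank 823 in HOXC13, with the nearest HOXC10 event 79382 bp away. The site in an intron of Slco6d1 had 3494 and 2808 reads and ranked 4235 in HOXC13. The Sncaip site had 2838 and 3086 reads and ranked 178 in HOXC13. With both parents the Auts2 site had 2503 and 2579 reads, 1879.5 in HOXC13 and 237 in HOXC10. The Cd200 site had 2018 and 1525 reads, 460 in HOXC13 and 48.4 in HOXC10, and the Slc39a8 site 1583 and 1676, 513 and 85.8. With HOXC10 alone the Klhl1 site had 291 and 214.5 reads against 1157 in HOXC10, at rank 20 there. Examples with neither parent were the Fam135b site, with 642.5 and 646 reads, the Vwa3b site, with 598.5 and 804 and 16.6 control reads, the B230118H07Rik site 562 and 555.5 and the Gm5565 site 471 and 373. The last had a HOXC13 event 140 bp and a HOXC10 event 186 bp away, just outside the distance used.

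The Hox clusters held a dense group of agreed sites. Within 50 kb of the 41 genes of this list were 19 sites, or 19.7 per Mb, against 2.55 per Mb around all protein-coding genes, and 39 of 41 genes had a site in reach beside 20.3% of all protein-coding genes. Neighbouring genes share sites, so these 39 are not independent. Among the 19 sites, a pair of neighbouring Hoxb2 events matched the same HOXC10:C13.2 and HOXC13 events. Of the 19, 11 had both parents, 8 HOXC13 alone and none HOXC10 alone or neither. Their GC content was 34.9% ± 9.16, 12 were in the top 10000 of HOXC13 and 8 in that of HOXC10, and 10 lay within 1 kb of a TSS.

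Single sites differed between the chimeras. A site 0.82 kb from the TSS of Hoxc5 had 2388 reads in HOXC10:C13.1 and 685 in HOXC10:C13.2, a log2 ratio of -1.80, with 3550 reads in HOXC13 and 1052.5 in HOXC10. The event with most HOXC10 reads on chromosomes 1 to 19 and X, 2064, lay 0.945 kb from the TSS of Hoxc4 and had 318 and 381 reads in the chimeras. Another Hoxc4 site had 1412 and 1472 reads. A site 0.63 kb from the TSS of Hoxa7 had 2474 and 2566.5 reads, 523 reads in HOXC13 and no HOXC10 event within 100 bp, the nearest being 629 bp away. By contrast the Hoxd4 site had more reads in HOXC10:C13.2, 479.6 against 207.5, and so did the Hoxa5 site, with 1062 against 624, and the Hoxa4 site, with 550.0 against 331.5. Over the 19 sites the log2 ratio ran from -1.80 to 1.21 with a median of 0.23, beside the 0.24 of all agreed sites, and 16 of 19 had more reads in HOXC10:C13.2. The others were the Hoxc5 site and a pair of neighbouring Hoxb2 events with 366.6 and 309.1 HOXC10:C13.1 reads. That pair matched the same HOXC10:C13.2 event of 181.6 reads.

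Other gene lists had lower densities of sites than the Hox clusters. Axon guidance genes had 82 sites near 23 of 68 genes (4.47 per Mb), led by Sema6d (9), Epha6 (8) and Robo1 (8), and 63 of the 82 had HOXC13 alone. Adhesion genes of neurons had 182 sites near 67 of 128 genes (5.10 per Mb), with a median gene length of 113.5 kb against 17.4 kb over all protein-coding genes, led by Cdh12 (17), Cntnap2 (17) and Adgrl3 (13). Of these, 151 had HOXC13 alone, 20 neither and 11 both. HOX cofactor genes had 13 sites near 5 of 9 genes, Pbx3 (3) and Meis1 (2) among them, 10 with HOXC13 alone and 3 with both. Motor neuron genes had 9 sites near 5 of 27 genes, of which 8 had both parents, led by the progenitor factor Nkx6-1 (3), Ebf1 (2) and Ebf3 (2). At 2.00 per Mb their density was below the 2.55 of all protein-coding genes, among whose 4208 sites 358 had both parents and 3326 HOXC13 alone.

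Lists linked with the posterior body lay on both sides of the 2.55 per Mb and 20.3% of all protein-coding genes. Caudal axis genes had 6 sites near 4 of 16 genes (25% of genes, 3.16 per Mb), all with HOXC13 alone, led by Lin28b (3), Sall4 (1) and Sox2 (1). Limb and genital HOX13 targets had 10 sites near 5 of 15 genes (33.3% of genes, 4.40 per Mb), with Bmp2 (2), Epha7 (2) and Fgf10 (2). Hair follicle genes linked with HOXC13, keratins among them, had 5 sites near 19 of 117 genes (16.2% of genes, 1.15 per Mb), which stand in clusters and share sites. Krt222 and Krt24 each had 1 site with both parents, of 165.3 HOXC10:C13.1 reads, and Krt33a had another with HOXC13 alone, of 153 reads. Olfactory and vomeronasal receptor clusters had 190 sites near 487 of 1466 genes (3.34 per Mb), with 136 HOXC13 alone, 53 neither and 1 both, led by Olfr1247, Olfr1248 and Olfr1249 with 6 shared sites each.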

How the data were processed

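Chromatin immunoprecipitation with sequencing (ChIP-seq) was analysed from binding event lists of day 3 cells. Per the labels' processing notes and the study's methods, the authors aligned reads to mm10 with Bowtie 1.0.1, keeping a single best hit, and called events with MultiGPS at q below 0.001 against a control library, with the libraries of a condition pooled. Picard 2.8.2 and edgeR 3.22.5 are also named in the submitters' processing notes. Each list holds the deposited estimated count of ChIP and of control reads per event, a deposited log2 fold over control, and a deposited score, the log2 q. Columns of the authors' comparisons between conditions hold fold changes and p-values and were not used.

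Events on chromosomes 1 to 19 and X were used by their position, leaving out 69 HOXC10:C13.1, 79 HOXC10:C13.2, 60 HOXC13 and 14 HOXC10 events. Estimated counts ranked the events and entered no count model. GC content, repeat-masked bases and words were read from GRCm38 within 50 bp of the event, 1 kb to each side and in consecutive genome tiles of the same length. Genes were protein-coding genes of the annotation, and a gene list counted sites within 50 kb. Named genes were the 5 with most agreed sites per class, the 5 sites with most HOXC10:C13.1 reads per class, and up to 3 genes per list. A few of these are not reported here. Shares carry 95% Wilson intervals. Scripts ran in Python 3.11.15 with numpy 2.4.6, pandas 2.3.3 and scipy 1.17.1 and were tested on simulated data. The members and gene lists were chosen with earlier results of these data known. Pooled lists allow no error between libraries, and the intervals cover counting error only.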

Additional observations from a re-analysis of the deposited data

Results flagged for a closer look

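Events on the mitochondrial chromosome lie outside the sites described and stood above the control library. HOXC10:C13.1 had 25 such events, the highest with 9487 reads against 181.2 control reads, a log2 fold of 4.30. HOXC10:C13.2 had 30, the highest with 14365.9 reads against 199.1, a log2 fold of 4.81. HOXC13 had 29 with up to 10440.6 reads and HOXC10 had 1 with 4332.5. A search by event counts for samples far from their group was not possible, since the lists pool the libraries of a group. Per library only depth and signal fraction were at hand. For HOXC10 these were 5.04 M reads at 0.017, 18.2 M at 0.041 and 21.8 M at 0.161, so its libraries differed widely in signal.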

How the results depend on the processing

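Across 12 results and 12 alternatives, 106 values were computed, of which 70 moved by less than the interval of the reported value (for GC content, 1 SD over sites) and 36 by more. The bound for GC content is the spread of single sites and is wide for a mean. A change with HOXC13 alone from 25.0% to 29.7% thus did not count as moved. Of the 70, 9 were identical, among them agreement and the TSS share when only the parents' lists changed, which do not enter them. With the top 5000 events of each chimera, agreement was 83.6%, the share with HOXC13 93.2%, with HOXC10 6.196% and with neither 6.77%, matched HOXC13 events in its top 10000 13.8%, TTTAC with both parents 49.0% and sites within 1 kb of a TSS 2.56%. With the top 20000 the shares with HOXC13, HOXC10 and neither were 74.2%, 8.06% and 25.0%. Ranking by the deposited log2 q gave 83.4%, 6.46% and 16.3%, a distance of 50 bp 80.3%, 6.47% and 19.3%, and 250 bp 86.8%, 8.19% and 12.9%. Parental events with a log2 q of -20 or lower gave 72.6%, 5.71% and 27.0%, with 15.3% of HOXC13 matches in its top 10000. With the HOXC13 list reduced to the HOXC10 length, 24.1% had HOXC13 and 73.6% neither, and 46.0% of matches were in the top 10000. The direction of these 3 changes follows by construction from fewer events. In the same setting TTTAC with HOXC13 alone was 46.3% and the GC content of that class 29.7%, which do not follow by construction. Within 25 bp TTTAC was 22.1% with HOXC13 alone, 23.2% with both and 17.1% with neither, and TTTACG 5.86%, 9.53% and 3.00%. GC content over 250 bp to each side was 31.6% with HOXC13 alone and 31.2% with neither. With TSSs of any gene 3.61% of sites lay within 1 kb. Apart from those that follow from the alternative's construction, the cause was not tested. No paired analysis was possible because each list pools its libraries, and for the same reason no replicate could be left out. The HOXC10 list rests on shallower libraries, so an absent HOXC10 event means that none was called at this depth.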
